A study of Mus musculus with 36 samples.

Results

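Ccn1, Ccn2, Ccn4 and Ankrd1 (older symbols Cyr61, Ctgf and Wisp1 for the CCN genes) were lower on soft than on stiff StemBond hydrogels when the 5 media and times were averaged, lower on either hydrogel than on tissue culture plastic, and mostly higher when the MEK inhibitor PD03 was added. With a term for sequencing pool the calls of Ankrd1 for the average and against plastic were not made under any of the 45 possible pool assignments, and that of Ccn4 on soft against plastic was made in 23. The genes were chosen by name, as a list of matricellular CCN genes with Ankrd1, were matched through their Ensembl identifiers, and make up 4 of the 49671 genes in the count table. All 4 were among the 17702 genes that passed the filter on low counts.

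The cells were mouse embryonic stem cells (mESCs) with the strain given as 129m wt. The substrates were soft and stiff versions of StemBond, a polyacrylamide gel that binds matrix protein covalently, with fibronectin as the matrix, and tissue culture plastic (TCP). Serum was in every medium, with or without LIF, the cytokine that supports self-renewal, and with or without PD03. There were 36 RNA-sequencing libraries in 11 groups: soft and stiff at 24 h in serum + LIF, TCP at 48 h in serum + LIF, and soft and stiff at 48 h in each of the media, which were serum + LIF + PD03, serum + PD03, serum + LIF and serum alone. Each group held 3 libraries except soft serum + PD03, which held 6.

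CCN proteins are secreted into the matrix, where they bind integrins, syndecans and growth factors and alter adhesion and signalling. Ccn1 and Ccn2 are textbook targets of the co-activators YAP and TAZ, which act through TEAD factors when cells spread and pull on a rigid surface, and both also respond to SRF with its actin-controlled MRTF partners. Ccn4 was first described as a gene induced by Wnt1. Ankrd1 encodes an ankyrin repeat protein of heart and skeletal muscle that is found in the nucleus and in the sarcomere, and it is widely used as a YAP and TAZ read-out in other cells.

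In GRCm38 coordinates, Ccn1 (ENSMUSG00000028195) lies at chr3:145646976-145649981 on the minus strand and Ccn2 (ENSMUSG00000019997) at chr10:24595442-24598683 on the plus strand. Ccn4 (ENSMUSG00000005124) lies at chr15:66891320-66923201 on the plus strand and Ankrd1 (ENSMUSG00000024803) at chr19:36111961-36120099 on the minus strand. All 4 are protein-coding, and the counts are over their exons. Ccn2 overlaps 1 annotated gene, the antisense transcript Gm15270, which had at most 12 counts in any library. The strand setting of the counting is not given in the sources used here.

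Since YAP, TAZ and SRF act through short DNA motifs near the genes they control, the 250 bases before the RefSeq transcription start are shown for Ccn1 and Ankrd1, the 2 of the 4 genes that matched an entry. Capitals mark matches to the TEAD core GGAATG on either strand. The windows are chr3:145649986-145650235 for Ccn1 and chr19:36119845-36120094 for Ankrd1, both GRCm38.p6, minus strand, written 5′ to 3′ along the gene. The Ankrd1 window lies inside the gene coordinates given above, which begin further upstream. Its positions are therefore relative to the RefSeq start only.
Ccn1: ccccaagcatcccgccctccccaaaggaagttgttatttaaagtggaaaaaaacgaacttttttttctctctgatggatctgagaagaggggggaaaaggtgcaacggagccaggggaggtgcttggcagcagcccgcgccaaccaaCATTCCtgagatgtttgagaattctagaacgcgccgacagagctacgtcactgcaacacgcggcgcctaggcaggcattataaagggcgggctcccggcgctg
Ankrd1: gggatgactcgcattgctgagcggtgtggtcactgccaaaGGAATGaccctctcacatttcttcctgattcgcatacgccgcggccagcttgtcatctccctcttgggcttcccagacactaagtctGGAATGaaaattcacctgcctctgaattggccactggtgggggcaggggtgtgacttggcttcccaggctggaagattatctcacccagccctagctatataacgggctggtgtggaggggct
Ccn1 held 1 match, on the opposite strand, with its nearest base 98 bases before the start. Ankrd1 held 2 matches, whose nearest bases were 205 and 118 bases before the start. The TEAD core was in 12.6% of 32817 such windows genome-wide. Neither window held the AP-1 motif TGANTCA, present in 6.75% of windows, or a CArG box, the SRF motif, present in 1.47%. These matches describe letters only.

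The libraries held 10405696 to 26635239 counts. The 6 embryonic stem cell markers were high throughout, summing to 2630 to 4440 CPM (counts scaled to library size), with Sall4 at a mean of 1200 and Pou5f1 at 591 CPM. Nothing in the labels says whether libraries of a group came from separate cultures, so every p-value measures the spread between these libraries, which may be technical. In a bulk sample, fewer cells that express a gene and less RNA per cell cannot be told apart. At 24 h soft and stiff were sequenced in the same pool. At 48 h they shared a pool only in serum + PD03, and there only for some of the soft libraries. In the other 48 h media substrate and pool cannot be told apart within the medium. Adding a pool term to the fit needed an assumption on which columns came from which pool, so each call is also given over the 45 assignments that the labels allow. That term rests on the groups split over pools, which were soft serum + PD03 and stiff serum + LIF. Library numbers in the text are column order only.

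Compared per length, as RPKM (CPM divided by kilobases of exon), Ccn1 and Ccn2 were the abundant members. Group means ran from 20.8 to 63.7 RPKM for Ccn1 and from 24.2 to 57.1 RPKM for Ccn2. Ccn4 ran from 0.425 to 1.90 RPKM and Ankrd1 from 0.0703 to 0.622 RPKM. The highest group mean was 3.07 times the lowest for Ccn1, 2.36 times for Ccn2, 4.48 times for Ccn4 and 8.85 times for Ankrd1, whose counts were only 1 to 43 per library.

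Ccn1, which binds integrins and supports adhesion and migration, was lower on soft in each of the 5 settings. At 24 h in serum + LIF it stood at 97.5, 92.1 and 75 CPM on soft and at 118, 147 and 120.1 CPM on stiff. At 48 h in serum + LIF the values were 40.4, 53.0 and 32.4 CPM on soft and 56.2, 51.1 and 58.5 CPM on stiff. In serum alone they were 42.6, 44.3 and 48.9 CPM on soft and 66.5, 70.9 and 71.5 CPM on stiff. Only at 48 h in serum + LIF did the soft and stiff libraries overlap, because 1 soft library lay above the lowest stiff one. In serum + PD03 the 6 soft libraries ran from 71.5 to 85.2 CPM with a median of 81.3, and the stiff ones stood at 115, 110.4 and 107 CPM. In serum + LIF + PD03 the soft libraries stood at 76.6, 86.7 and 82.4 CPM and the stiff ones at 131, 126 and 118 CPM.

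On the log2 scale the soft minus stiff difference of Ccn1 ran from -0.62 to -0.40 over the 5 settings. The log2 fold change (soft minus stiff) was -0.55 ± 0.09 (SE) at 24 h (edgeR adjusted p = 2.46e-05) and -0.40 ± 0.10 at 48 h in serum + LIF (edgeR adjusted p = 0.033). It was -0.62 in serum (edgeR adjusted p = 8.25e-06), -0.47 in serum + PD03 (edgeR adjusted p = 2.19e-05) and -0.61 in serum + LIF + PD03 (edgeR adjusted p = 1.1e-06). Averaged with equal weight, soft was 1.44-fold lower (log2 fold change -0.53 ± 0.04, edgeR adjusted p = 4.15e-15). The call at 48 h in serum + LIF was fragile: it was lost without soft library 1 (-0.36, adjusted p = 0.19), soft library 3 (-0.22, adjusted p = 0.274), stiff library 1 (-0.38, adjusted p = 0.142) or stiff library 3 (-0.34, adjusted p = 0.285), and with DESeq2 (adjusted p = 0.0599). With a pool term that call was made in 0 of 45 assignments, the one in serum in 42 and the other 3 in all 45. At 24 h the term cannot change the difference, since all those libraries share a pool, so that result is no check.

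Over the 11 groups Ccn1 was highest on stiff at 24 h (129 ± 16.2 CPM, SD, n = 3) and lowest on soft at 48 h in serum + LIF (41.9 ± 10.4 CPM, SD, n = 3). From the highest down, the order was stiff 24 h, stiff serum + LIF + PD03, stiff serum + PD03, TCP, soft 24 h, soft serum + LIF + PD03, soft serum + PD03, stiff serum, stiff serum + LIF, soft serum and soft serum + LIF. In 4 of the 10 neighbouring pairs the library ranges overlapped: stiff 24 h with stiff serum + LIF + PD03, soft 24 h with soft serum + LIF + PD03, the latter with soft serum + PD03, and the 2 lowest groups.

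Ccn2, a secreted factor best known for its part in matrix production, moved less but with little spread. At 24 h in serum + LIF it stood at 92.1, 93.2 and 87.5 CPM on soft and at 109, 118 and 117 CPM on stiff. At 48 h in serum + LIF the values were 72.9, 67.9 and 67.3 CPM on soft and 77.4, 77.4 and 81.1 CPM on stiff. In serum they were 68.9, 77.7 and 77.3 CPM on soft and 90.04, 95.5 and 87.1 CPM on stiff. No soft library reached the lowest stiff library in these settings. In serum + PD03 the 6 soft libraries ran from 123 to 129 CPM with a median of 126, and the stiff ones stood at 152, 142 and 151 CPM. In serum + LIF + PD03 the soft libraries stood at 134, 139 and 137 CPM and the stiff ones at 153, 169 and 167 CPM, again without overlap.

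The soft minus stiff log2 fold change of Ccn2 was -0.34 ± 0.05 (SE) at 24 h (edgeR adjusted p = 7.51e-06). It was -0.28 in serum (edgeR adjusted p = 0.000186), -0.24 in serum + PD03 (edgeR adjusted p = 0.000114) and -0.26 in serum + LIF + PD03 (edgeR adjusted p = 0.000245). The 48 h serum + LIF value was -0.18, with a 95% confidence interval from -0.29 to -0.07, and missed the threshold after adjustment (edgeR adjusted p = 0.107). The average of the 5 settings was 1.2-fold lower on soft (-0.26 ± 0.02, edgeR adjusted p = 2.96e-13). With a pool term the calls were made in 45 of 45 assignments at 24 h, in serum + PD03 and for the average, in 27 in serum and in 21 in serum + LIF + PD03. The 24 h libraries share a pool, so the term could not change the difference there.

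The 4 groups with PD03 had the highest Ccn2 levels, from stiff serum + LIF + PD03 (163 ± 8.73 CPM, SD, n = 3) through stiff serum + PD03 and soft serum + LIF + PD03 to soft serum + PD03 (126 ± 2.03 CPM, SD, n = 6), with no overlap between neighbours. Below them came stiff 24 h, TCP, soft 24 h, stiff serum, stiff serum + LIF, soft serum and soft serum + LIF (69.4 ± 3.06 CPM, SD, n = 3). The ranges overlapped in 4 of the 10 neighbouring pairs: stiff 24 h with TCP, soft 24 h with stiff serum, stiff serum + LIF with soft serum, and soft serum with soft serum + LIF.

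Ccn4, the Wnt-inducible member, had the largest relative drop on soft among the 3 CCN genes in the average of the settings. At 24 h in serum + LIF it stood at 4.27, 4.32 and 5.03 CPM on soft and at 8.64, 11.8 and 11.3 CPM on stiff. At 48 h in serum + LIF the values were 3.39, 3.30 and 2.29 CPM on soft and 4.48, 3.34 and 3.84 CPM on stiff. In serum they were 2.37, 1.97 and 2.75 CPM on soft and 4.90, 5.55 and 5.21 CPM on stiff. The groups were apart at 24 h and in serum, and at 48 h in serum + LIF the highest soft library exceeded the lowest stiff one. In serum + PD03 the 6 soft libraries ran from 2.75 to 4.86 CPM, and the stiff ones stood at 7.82, 7.90 and 7.58 CPM. In serum + LIF + PD03 the soft libraries stood at 3.64, 3.19 and 3.32 CPM and the stiff ones at 8.84, 9.64 and 7.12 CPM.

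In 4 of the 5 settings Ccn4 was 2.2- to 2.51-fold lower on soft. The log2 fold changes (soft minus stiff) were -1.21 ± 0.17 (SE) at 24 h (edgeR adjusted p = 1.71e-06), -1.13 in serum (edgeR adjusted p = 6.24e-05), -1.16 in serum + PD03 (edgeR adjusted p = 1.74e-07) and -1.33 in serum + LIF + PD03 (edgeR adjusted p = 1.35e-07). The 48 h serum + LIF value was -0.37, with a 95% confidence interval from -0.79 to 0.05 (edgeR adjusted p = 0.526). The average of the 5 settings was 2.06-fold lower on soft (-1.04 ± 0.08, edgeR adjusted p = 9.06e-15). Given a pool term, the calls at 24 h, in serum + PD03 and for the average were made in all 45 assignments, that in serum + LIF + PD03 in 42 and that in serum in 24. For 24 h that was fixed by the shared pool.

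The highest Ccn4 level was on stiff at 24 h (10.6 ± 1.70 CPM, SD, n = 3) and the lowest on soft in serum (2.36 ± 0.392 CPM, SD, n = 3). Between them, from high to low, came stiff serum + LIF + PD03, TCP, stiff serum + PD03, stiff serum, soft 24 h, stiff serum + LIF, soft serum + PD03, soft serum + LIF + PD03 and soft serum + LIF. Stiff serum + PD03 and stiff serum were the only neighbours whose libraries did not overlap. The other 9 of the 10 neighbouring pairs overlapped.

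Ankrd1 was at the edge of detection, with 1 to 20 counts in each soft library and 2 to 43 counts in each stiff library. At 24 h in serum + LIF it stood at 0.261, 0.892 and 0.0578 CPM on soft and at 1.43, 1.23 and 0.779 CPM on stiff. The values at 48 h in serum + LIF were 0.0627, 0.508 and 0.131 CPM on soft and 0.213, 0.139 and 0.256 CPM on stiff. These 2 pairs of groups overlapped. In serum the soft libraries stood at 0.345, 0.192 and 0.102 CPM and the stiff ones at 0.822, 0.485 and 0.542 CPM. In serum + PD03 the 6 soft libraries ran from 0.345 to 0.861 CPM with a median of 0.735, and the stiff ones stood at 1.54, 1.51 and 0.899 CPM. In serum + LIF + PD03 the soft libraries stood at 0.680, 0.149 and 1.09 CPM and the stiff ones at 1.74, 2.11 and 1.53 CPM, and in these last 3 settings soft and stiff did not overlap.

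Of the 5 settings, Ankrd1 passed the test in serum + LIF + PD03, where it was 2.81-fold lower on soft (log2 fold change -1.49 ± 0.46, edgeR adjusted p = 0.0338). That call was lost without soft library 1 (-1.55, adjusted p = 0.0814) or 2 (-1.02, adjusted p = 0.26) and without stiff library 1 (-1.51, adjusted p = 0.0775), 2 (-1.36, adjusted p = 0.135) or 3 (-1.60, adjusted p = 0.0557). The log2 fold changes were -1.51 at 24 h (edgeR adjusted p = 0.128), -1.55 in serum (edgeR adjusted p = 0.16) and -0.92 in serum + PD03 (edgeR adjusted p = 0.204). At 24 h, leaving out soft library 2, the one with 13 counts, gave -2.95 (adjusted p = 0.0122). At 48 h in serum + LIF the value was 0.17, with a 95% confidence interval from -1.41 to 1.75, so neither direction can be read at this depth. The average of the 5 settings was 2.08-fold lower on soft (-1.06 ± 0.26, edgeR adjusted p = 0.00268). That average was called with a pool term in 0 of 45 assignments, with log2 fold changes from -1.63 to -0.70 and adjusted p from 0.0686 to 0.578.

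By group mean Ankrd1 was highest on stiff in serum + LIF + PD03 (1.79 ± 0.297 CPM, SD, n = 3), followed by stiff serum + PD03, stiff 24 h, TCP, soft serum + PD03, soft serum + LIF + PD03, stiff serum, soft 24 h, soft serum + LIF, soft serum and stiff serum + LIF (0.203 ± 0.0591 CPM, SD, n = 3). The libraries overlapped in all 10 neighbouring pairs, so the order is not resolved step by step.

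**Figure D1:**
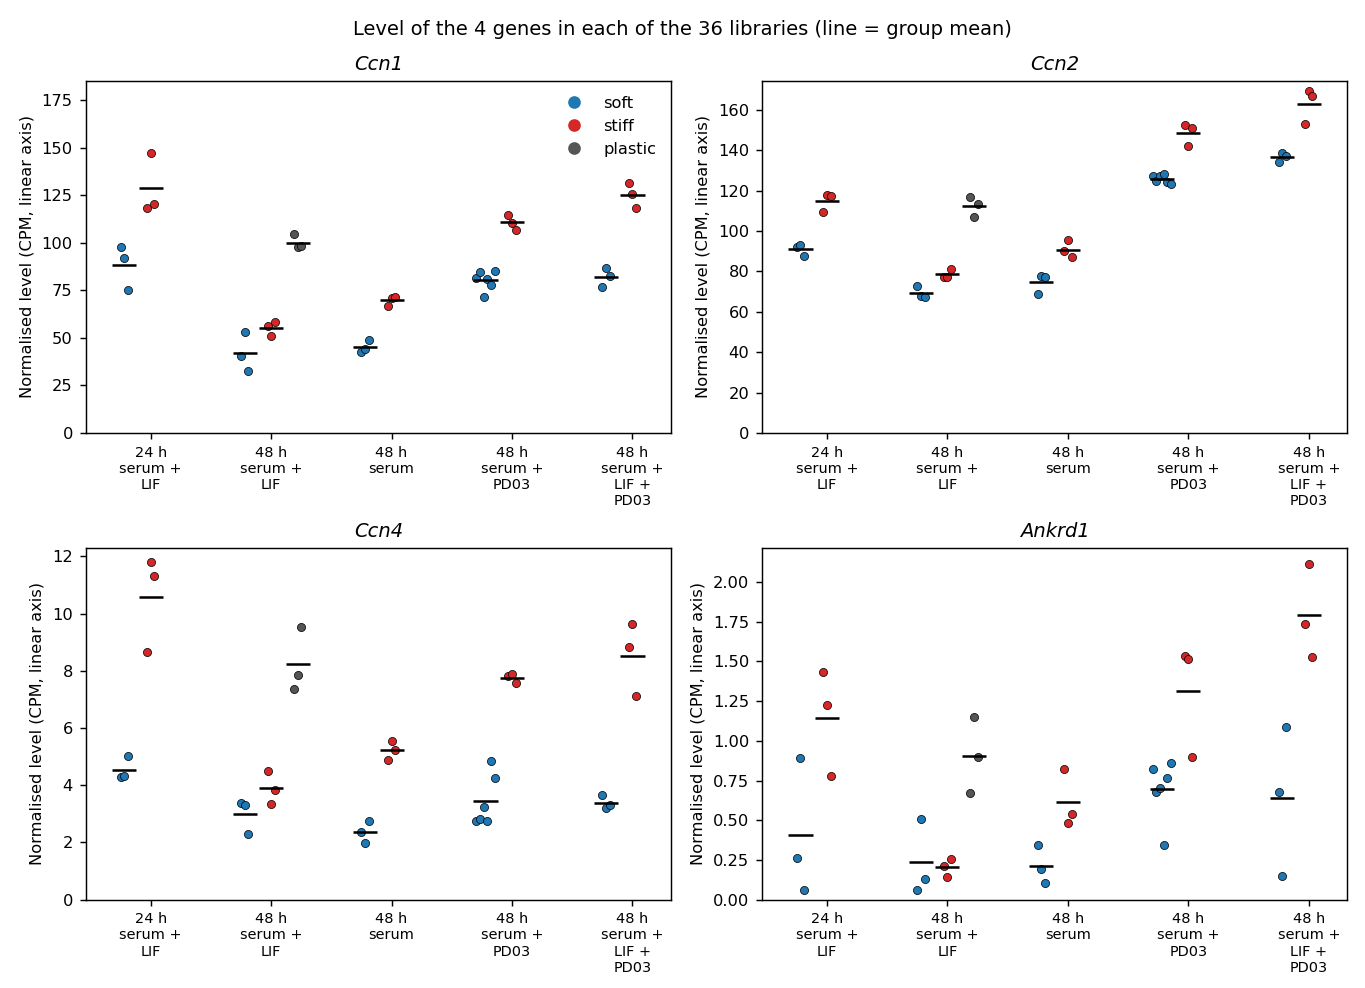
Normalised level (CPM, linear axis from 0) of Ccn1, Ccn2, Ccn4 and Ankrd1 in each of the 36 libraries, by time and medium, with soft in blue, stiff in red and TCP in grey; each point is a library and each line a group mean. Soft libraries sit below stiff ones in most settings, most narrowly at 48 h in serum + LIF, where Ccn1, Ccn4 and Ankrd1 overlap.

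Counted together, the number of the 4 genes called lower on soft can be set against the share of all tested genes called lower there. At 24 h it was 3 of 4, against 2.52% of all 17702 genes. At 48 h in serum + LIF it was 1 of 4 (0.333% of all genes) and in serum alone 3 of 4 (2.77%). With PD03 it was 3 of 4 without LIF (3.42%) and 4 of 4 in its presence (4.82%). For the average of the settings it was 4 of 4, against 8.74%. In that average 0.322% of the tested genes had a more negative log2 fold change than Ccn4 and 0.282% more negative than Ankrd1, but 3.07% were below Ccn1 and 10.6% below Ccn2.

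**Figure D2:**
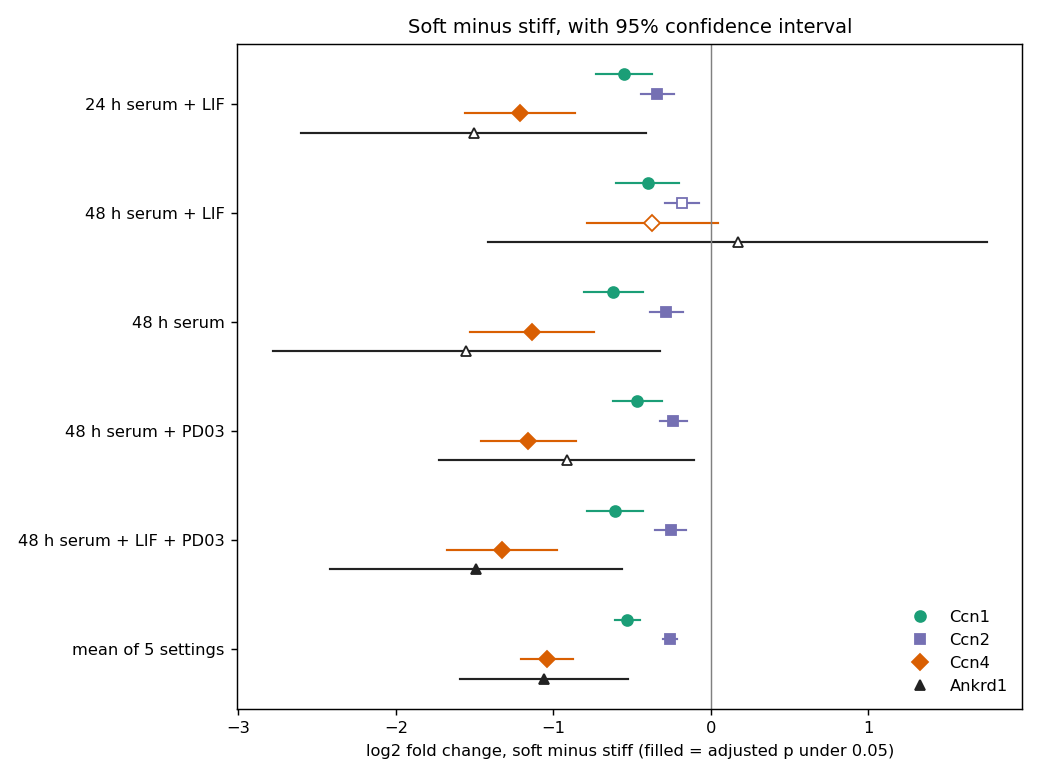
Log2 fold change, soft minus stiff, of the 4 genes in each setting and in the average of the 5 settings, with 95% confidence intervals; filled symbols passed edgeR adjusted p of 0.05. Ccn1 and Ccn2 have narrow intervals below 0, Ccn4 lies near -1.2 except at 48 h in serum + LIF, and Ankrd1 has intervals several times wider.

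Whether the soft minus stiff difference itself changed with the medium or time was tested by interaction terms, and edgeR called 0 of the 4 genes in each. The share of all 17702 genes called after adjustment was 0.797% for PD03 without LIF and 1.07% for PD03 with LIF. It was 0.0847% for LIF without PD03, 0.00565% for LIF with PD03 and 0.254% for time. The looser cutoff of 0.05 before adjustment was passed by 0, 1, 1, 0 and 2 members, in that order. Among all genes that looser cutoff was passed by 2024, 1689, 1719, 830 and 1853. DESeq2 called 1 member in these 5 tests. That was Ccn4, whose drop on soft was larger with PD03 than without it when LIF was present, by -0.95 on the log2 scale with a 95% confidence interval from -1.5 to -0.41 (edgeR adjusted p = 0.0754, DESeq2 adjusted p = 0.0379, edgeR without the filter on low counts adjusted p = 0.0443). Without soft serum + LIF library 3 it was -1.14 (adjusted p = 0.0205), and without stiff serum + LIF + PD03 library 3 it was -1.09 (adjusted p = 0.0357).

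Markers of other cells moved with the substrate, and their shift with PD03 is given with the PD03 results. Of 9 fibroblast markers, 7 were tested and 5 of these were lower on soft in the average, with a median of -0.79 against 0.00 over all genes. Their summed level ran from 54.6 to 61.8 CPM on stiff and from 27.2 to 39.5 CPM on soft at 24 h, and from 35.8 to 43.6 and from 28.4 to 32.9 CPM at 48 h in serum + LIF. In serum + LIF + PD03 it ran from 92.8 to 99.5 CPM on stiff and from 34 to 48.9 CPM on soft, in serum from 51.9 to 57.3 and from 25.4 to 32.3 CPM, and in serum + PD03 from 74.7 to 84.2 and from 36.1 to 48.4 CPM. Most of that sum was Col1a1, a collagen chain, at a mean of 35.1 CPM, and Thy1 at 6.84 CPM, while Lum was at 0 in 24 libraries and Dcn, which had a mean of 0.484 CPM, in 3. On TCP the sum was 73.7 to 85.6 CPM. All 5 trophoblast markers were tested and 4 were lower on soft, with Gata3 at a mean of 48.4 and Krt7 at 10.6 CPM. Their sum ran from 40 to 45.5 CPM on stiff and from 26.6 to 32 CPM on soft at 24 h, from 20.3 to 24.4 and from 12 to 20.6 CPM at 48 h in serum + LIF, and from 20.2 to 23.7 and from 14.8 to 17.5 CPM in serum. It ran from 138 to 142 CPM on stiff and from 103 to 114 CPM on soft in serum + PD03, from 154 to 174 and from 119 to 124 CPM in serum + LIF + PD03, and from 30.9 to 33.3 CPM on TCP. The part of these cell markers in the results for the 4 genes was not tested.

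Of the other lists, 5 of 6 stem cell markers were higher on soft (median 0.17). Among the primitive endoderm markers 1 of 7 was lower, with Dab2 (mean 52.2 CPM) and Gata6 (7.64 CPM) the most abundant. Among the mesoderm markers 1 of 5 tested was lower, with Hand1 (24.7 CPM) and Eomes (6.45 CPM) the most abundant. Of the heart and skeletal muscle markers, with which Ankrd1 is expressed in the body, 3 of 5 tested were lower on soft. The most abundant were Myh6 (8.65 CPM) and Actn2 (7.36 CPM), and Nppa was at 0 in 17 libraries and Myog in 16.

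Against TCP at 48 h in serum + LIF, all 4 genes were lower on both hydrogels. On TCP Ccn1 stood at 104, 97.5 and 98.1 CPM, Ccn2 at 117, 107 and 114 CPM, and Ccn4 at 7.35, 7.87 and 9.53 CPM. Ankrd1 stood at 0.668, 1.15 and 0.898 CPM. No soft or stiff library of that medium and time reached the TCP range of any of the 4 genes. The share of all genes with such a separation was not counted, so this describes these libraries only. On soft, 4 of 4 genes were called lower against 6.47% of all genes, and on stiff 4 of 4 against 3.59%.

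Relative to TCP, Ccn1 was 2.39-fold lower on soft (log2 fold change -1.25 ± 0.10, edgeR adjusted p = 1.39e-14) and 1.81-fold lower on stiff (-0.85 ± 0.09, edgeR adjusted p = 2.16e-09). Ccn2 was 1.62-fold lower on soft (-0.70 ± 0.05, edgeR adjusted p = 1.08e-14) and 1.43-fold lower on stiff (-0.51 ± 0.05, edgeR adjusted p = 2.92e-10). Ccn4 was 2.74-fold lower on soft (-1.45 ± 0.19, edgeR adjusted p = 6.6e-08) and 2.12-fold lower on stiff (-1.08 ± 0.18, edgeR adjusted p = 2.96e-05). By group mean, stiff lay between soft and TCP for each of the CCN genes. Both comparisons use the same 3 TCP libraries.

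Ankrd1 was 3.77-fold lower on soft than on TCP (-1.92 ± 0.62, edgeR adjusted p = 0.0318) and 4.24-fold lower on stiff (-2.09 ± 0.63, edgeR adjusted p = 0.0362). The soft call was lost without TCP library 2 (-1.69, adjusted p = 0.121) or 3 (-1.90, adjusted p = 0.0672) and without soft library 1 (-1.45, adjusted p = 0.182) or 3 (-1.62, adjusted p = 0.123). The stiff call was lost without TCP library 2 (-1.87, adjusted p = 0.141) or 3 (-2.09, adjusted p = 0.0776) and without stiff library 1 (-2.10, adjusted p = 0.105), 2 (-1.90, adjusted p = 0.142) or 3 (-2.31, adjusted p = 0.0804). TCP libraries shared no pool with the soft libraries of this medium and time, and were in another pool than most of the stiff ones. With a pool term Ankrd1 was called in 0 of 45 assignments on both gels, Ccn4 in 23 on soft and 31 on stiff, and Ccn1 and Ccn2 in all 45.

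From 24 h to 48 h in serum + LIF Ccn1, Ccn2 and Ccn4 fell on both gels. On soft, 3 of 4 genes were called lower at 48 h, against 11.4% of all genes, and on stiff 4 of 4, against 13%. Ccn1 dropped most of these 3 on soft, 2.09-fold (-1.07 ± 0.10, edgeR adjusted p = 8.08e-12), and fell 2.32-fold on stiff (-1.22 ± 0.09, edgeR adjusted p = 7.17e-15). Ccn2 fell 1.31-fold on soft (-0.39 ± 0.05, edgeR adjusted p = 2.17e-07) and 1.46-fold on stiff (-0.55 ± 0.05, edgeR adjusted p = 9.75e-12).

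Ccn4 fell 1.52-fold on soft (-0.61 ± 0.21, edgeR adjusted p = 0.0242) and 2.73-fold on stiff (-1.45 ± 0.17, edgeR adjusted p = 5.57e-09). Its soft call was lost without soft 24 h library 3 (-0.51, adjusted p = 0.126) or soft 48 h library 3 (-0.43, adjusted p = 0.17). Ankrd1 fell 5.35-fold on stiff (-2.42 ± 0.60, edgeR adjusted p = 0.00162), while on soft its log2 fold change was -0.74 with a 95% confidence interval from -2.18 to 0.69 (edgeR adjusted p = 0.497). Time and pool coincide here on soft, where the 24 h and 48 h libraries share no pool, and nearly coincide on stiff. The soft calls were made under a pool term in 45 of 45 assignments for Ccn1, 30 for Ccn2 and 1 for Ccn4, whose log2 fold change then ran from -1.40 to 0.36. The stiff calls were made in all 45 for the CCN genes and in 0 for Ankrd1.

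PD03 blocks MEK, the kinase that activates ERK, and its addition raised most of these genes. In serum on soft, 4 of 4 genes were called higher, and in serum + LIF on soft 2 of 4. On stiff it was 3 of 4 in serum and 4 of 4 in serum + LIF. The share of all genes called higher was large in each of these comparisons (29%, 27.8%, 28.4% and 28.3%, in that order), so the number of calls alone says little about these genes. Most of these groups shared a pool within a substrate.

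Markers of other cells also moved with PD03. Of the 5 trophoblast markers 5, 5, 5 and 4 were higher in these comparisons, in the same order, with medians of 2.73, 2.13, 2.37 and 2.74 on the log2 scale. Of the 7 tested fibroblast markers 4, 3, 4 and 4 were higher and 2 lower each time. Among the 5 tested heart and skeletal muscle markers 4, 3, 3 and 4 were higher and 0, 0, 1 and 0 lower. The shares of all genes called lower were 28.5%, 26.6%, 27.4% and 27.8%, and those called higher are given above. Primitive endoderm markers went both ways: 1, 1, 2 and 2 of 7 were called higher and 3, 3, 2 and 4 lower, in the same order. Their medians were -0.10, -0.36, -0.04 and -0.73. The sum of these markers, of which Dab2 was the most abundant (mean 52.2 CPM), was nevertheless higher with PD03. At 48 h it ran from 47.6 to 70.2 CPM without and from 83.1 to 113 CPM with PD03 on soft. On stiff it ran from 49 to 59.3 and from 118 to 141 CPM. Among the 5 tested mesoderm markers 1 was called higher and 2 lower in each comparison, with medians of -0.57, -0.56, -1.09 and -0.72. Their sum, in which Hand1 was the most abundant (mean 24.7 CPM), was higher with PD03. At 48 h the summed mesoderm markers ran from 22.7 to 27.7 CPM without and from 32.2 to 42.1 CPM with PD03 on soft. On stiff they ran from 22.2 to 29.5 and from 55 to 70.8 CPM. The part of these markers in the PD03 results was not tested.

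Ccn1 rose with PD03 1.77-fold in serum and 1.95-fold in serum + LIF on soft (log2 fold changes 0.82 ± 0.08 and 0.97 ± 0.10, edgeR adjusted p = 3.06e-12 and 2.25e-12). On stiff it rose 1.59-fold in serum and 2.26-fold in serum + LIF (0.67 ± 0.09 and 1.17 ± 0.09, edgeR adjusted p = 9.48e-09 and 7.26e-16). Ccn2 rose 1.69-fold and 1.97-fold on soft (0.75 ± 0.05 and 0.98 ± 0.05, edgeR adjusted p = 4.85e-20 and 5e-22). On stiff Ccn2 rose 1.64-fold and 2.08-fold (0.71 ± 0.05 and 1.05 ± 0.05, edgeR adjusted p = 3.76e-17 and 1.34e-23). For both genes every library with PD03 lay above every 48 h library of the same substrate without it. How many other genes separated with PD03 in this way was not counted, so such separations describe these libraries only. At 24 h, with no PD03, some Ccn1 libraries of each substrate lay as high as those with PD03.

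Ccn4 rose with PD03 on stiff, 1.5-fold in serum (0.58 ± 0.17, edgeR adjusted p = 0.00312) and 2.19-fold in serum + LIF (1.13 ± 0.18, edgeR adjusted p = 2.69e-07). On soft it rose 1.47-fold in serum (0.56 ± 0.18, edgeR adjusted p = 0.00692), a call lost without soft serum library 2 (0.43, adjusted p = 0.0735) and made in 39 of 45 pool assignments. In serum + LIF on soft its log2 fold change was 0.18, with a 95% confidence interval from -0.24 to 0.59 (edgeR adjusted p = 0.494), and the libraries overlapped.

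Ankrd1 had its largest difference here: on stiff in serum + LIF it rose from 0.203 to 1.79 CPM, 8.38-fold (3.07 ± 0.57, edgeR adjusted p = 8.59e-06), and the libraries did not overlap. On soft in serum it rose 3.21-fold (1.68 ± 0.54, edgeR adjusted p = 0.00703), a call lost without soft serum library 3 (1.36, adjusted p = 0.0559), and 1 library with PD03 lay within the range without it. In serum + LIF on soft the value was 1.41 (edgeR adjusted p = 0.0566), which passed with DESeq2 (adjusted p = 0.0405), without soft serum + LIF library 2 (2.64, adjusted p = 0.00744) or without soft serum + LIF + PD03 library 2 (1.87, adjusted p = 0.00961). It fell short in the other 4 fits that left out 1 library, down to 0.80 (adjusted p = 0.368) without soft serum + LIF + PD03 library 3. In serum on stiff it was 1.04 (edgeR adjusted p = 0.0611) and passed without stiff serum + PD03 library 3 (1.25, adjusted p = 0.0404).

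Addition of LIF gave few calls. On soft, edgeR and DESeq2 called 0 of 4 genes without PD03 and 0 of 4 with PD03. The shares of all genes called by edgeR were 0.0169% and 0.107%. On stiff with PD03 both tools called 0 of 4 as well, against 0.514% of all genes. Before adjustment, 0, 1 and 2 members had an edgeR p below 0.05 in these comparisons, in that order. So did 1345, 1430 and 1533 of all 17702 genes. On stiff without PD03, 1 of 4 was called, against 1.41% of all genes. This was Ccn2, 1.15-fold lower with LIF (-0.21 ± 0.05, edgeR adjusted p = 0.028), with the libraries apart. Its call was lost without stiff serum library 1 (-0.23, adjusted p = 0.0518) or 2 (-0.17, adjusted p = 0.221) and without stiff serum + LIF library 1 (-0.21, adjusted p = 0.139) or 2 (-0.21, adjusted p = 0.104). Ccn1 had a value of -0.33 in that comparison (edgeR adjusted p = 0.0698, and 6.48e-05 without the filter on low counts), also with the libraries apart. Ccn4 had -0.42 (edgeR unadjusted p = 0.0314, adjusted p = 0.359) and Ankrd1 -1.60 (edgeR unadjusted p = 0.0175, adjusted p = 0.279). All 4 genes thus had negative values there, each at an unadjusted p under 0.05. Of all 17702 genes, 2032 were under that unadjusted cutoff in this comparison, in either direction.

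Without PD03 the LIF log2 fold change of Ccn2 was -0.11 on soft and -0.21 on stiff, and with PD03 it was 0.12 and 0.14. A test of LIF by PD03 averaged over both substrates, chosen after these values were seen, gave a difference of 0.28 ± 0.05 (edgeR adjusted p = 0.000606), and 1 of the 4 genes passed against 0.881% of all genes. It stayed past the threshold in all 27 fits that left out a library and in all 45 pool assignments. Ccn1 had a difference of 0.32 ± 0.09 (edgeR adjusted p = 0.0779), which passed without soft serum + LIF library 2 (0.44, adjusted p = 0.00171) or without the filter on low counts (edgeR adjusted p = 0.000152).

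**Figure D3:**
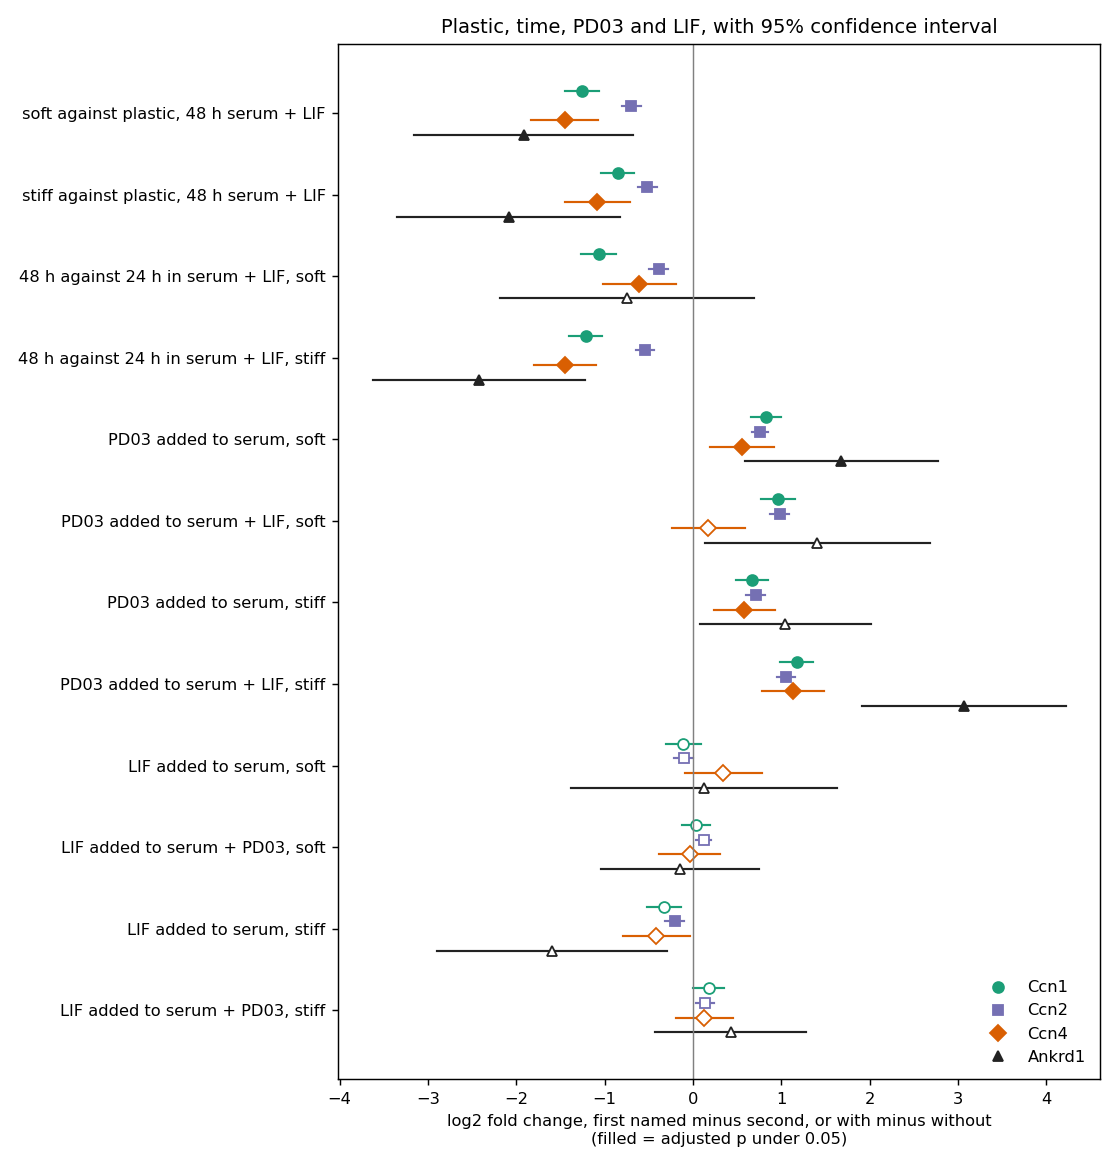
Log2 fold change of the 4 genes for hydrogel against TCP, 48 h against 24 h, addition of PD03 and addition of LIF, with 95% confidence intervals; filled symbols passed edgeR adjusted p of 0.05. The points lie below 0 for plastic and time and above 0 for PD03, with the largest value for Ankrd1 on stiff in serum + LIF (3.07), and near 0 for most LIF comparisons.

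Of the other CCN genes, Ccn3, first known as a gene overexpressed in nephroblastoma, was scarce, with group means of 0.372 to 1.69 CPM. It was lower on soft in the average of the settings (-0.49 ± 0.17, edgeR adjusted p = 0.0437), a call lost without the filter on low counts (adjusted p = 0.102), and in no single setting. With PD03 it fell in all 4 comparisons, by -1.10 and -2.04 on soft in serum and in serum + LIF (edgeR adjusted p = 0.00418 and 3.6e-05) and by -1.58 and -1.13 on stiff (edgeR adjusted p = 0.000486 and 0.00719). Ccn1 and Ccn2 had positive values in each of those 4 comparisons. From 24 h to 48 h in serum + LIF Ccn3 rose on soft (1.29 ± 0.40, edgeR adjusted p = 0.0142) and had a value of 0.54 on stiff (edgeR adjusted p = 0.282). Ccn5 and Ccn6 had at most 3 and 7 counts in a library and were not tested.

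Among the relatives of Ankrd1, muscle ankyrin repeat genes that respond to stretch in muscle, Ankrd2 and Ankrd23 were not called between soft and stiff (-0.92, edgeR adjusted p = 0.365, and 0.72, edgeR adjusted p = 0.0631). Ankrd2 was near or at 0 in the groups without PD03, where group means were 0 to 0.0989 CPM, and stood at 0.596 to 1.35 CPM in the 4 groups with it. Its PD03 difference passed in all 4 comparisons (largest edgeR adjusted p = 4.3e-05). Ankrd23 passed in 1 of the 4, on stiff in serum + LIF (2.34 ± 0.67, edgeR adjusted p = 0.00257).

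The lists around these genes were compiled with earlier results of these data known, so their counts are descriptions. Of 19 other genes of a YAP and TAZ signature, all tested, 11 were lower on soft and none higher in the average of the settings, with a median of -0.29 against 0.00 for all genes. The largest differences were in Rbms3, an RNA-binding protein (-1.27 ± 0.32, edgeR adjusted p = 0.00245), Tgfb2, a TGF-beta ligand (-1.06 ± 0.06, edgeR adjusted p = 1.17e-19), and Axl, a receptor tyrosine kinase (-0.92 ± 0.08, edgeR adjusted p = 4.4e-14). Against TCP 11 were lower on soft and 9 on stiff, and with PD03 11, 11, 12 and 14 were higher and 4 lower each time, on soft in serum, soft in serum + LIF, stiff in serum and stiff in serum + LIF. The shares of all genes called higher with PD03 were 29%, 27.8%, 28.4% and 28.3%, and called lower 28.5%, 26.6%, 27.4% and 27.8%. At 48 h 12 were lower than at 24 h on soft and 14 on stiff, and LIF gave a call for 1 of the 19, lower on stiff without PD03.

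Of 13 tested targets of SRF and MRTF, all were lower on soft, with a median of -0.47. Acta2, smooth muscle actin (-1.25 ± 0.06, edgeR adjusted p = 1.32e-23), Tagln, an actin-binding protein (-1.20 ± 0.06, edgeR adjusted p = 4.67e-22), and Acta1, skeletal muscle actin (-1.01 ± 0.06, edgeR adjusted p = 2.28e-18), had the largest differences. In serum + LIF, 12 of the 13 were lower than on TCP on each gel. With PD03 11, 11, 12 and 13 of them were higher, against 29%, 27.8%, 28.4% and 28.3% of all genes, and 1 was lower in each of the soft comparisons. From 24 h to 48 h in serum + LIF 11 were lower on soft and 13 on stiff.

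Of 10 genes for YAP, TAZ, TEAD, SRF and their partners, 5 were lower on soft, with a median of -0.09. The largest differences were in Tead3 (-0.43 ± 0.07, edgeR adjusted p = 2.86e-06), Vgll4, a competitor of YAP for TEAD (-0.20 ± 0.05, edgeR adjusted p = 0.00495), and Wwtr1, which encodes TAZ (-0.12 ± 0.03, edgeR adjusted p = 0.000616). Yap1 and Srf, picked out after their values were seen, had log2 fold changes of 0.00 (edgeR adjusted p = 0.99) and -0.01 (edgeR adjusted p = 0.809). With PD03, 7 of the 10 regulators were higher in each of the 4 comparisons, against 29%, 27.8%, 28.4% and 28.3% of all genes. Called lower were 1, 0, 1 and 1 of them, on soft in serum, soft in serum + LIF, stiff in serum and stiff in serum + LIF. Wwtr1 rose by 1.23 to 1.4 on the log2 scale (largest edgeR adjusted p = 8.48e-24) and Vgll4 by 1.23 to 1.71 (largest edgeR adjusted p = 2.94e-12), while Tead3 was not called. These are mRNA levels and say nothing of protein or its place in the cell.

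Of 12 immediate-early genes, the first to respond to growth factors, 4 were lower and 1 higher on soft, against 8.74% and 8.35% of all genes. The gene called higher was Klf10 (0.10 ± 0.03, edgeR adjusted p = 0.00692). Atf3 (-0.57 ± 0.11, edgeR adjusted p = 5.19e-05) and Jun (-0.53 ± 0.05, edgeR adjusted p = 2.56e-13) were lower, and Fosb had a value of 0.34 (edgeR adjusted p = 0.0557, DESeq2 adjusted p = 0.0391). Of 9 receptors for CCN proteins, 4 were lower on soft, among them the integrin chains Itgb1 (-0.31 ± 0.02, edgeR adjusted p = 8.85e-15) and Itgav (-0.16 ± 0.03, edgeR adjusted p = 5.77e-06) and the syndecan Sdc4 (-0.16 ± 0.03, edgeR adjusted p = 9.71e-05). Of 9 Wnt targets, listed because of Ccn4, 1 was lower and 1 higher, close to the shares of 8.74% and 8.35% of all genes. These were Axin2 (-0.13 ± 0.04, edgeR adjusted p = 0.00539) and Notum (0.20 ± 0.04, edgeR adjusted p = 7.27e-05). The 3 with the largest values, Lgr5 (-0.43, edgeR adjusted p = 0.409), Sp5 (0.43, edgeR adjusted p = 0.0947) and Rnf43 (-0.41, edgeR adjusted p = 0.109), did not pass. With PD03, 7 of these 9 Wnt targets were lower in each comparison, against 28.5%, 26.6%, 27.4% and 27.8% of all genes called lower.

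**Figure D4:**
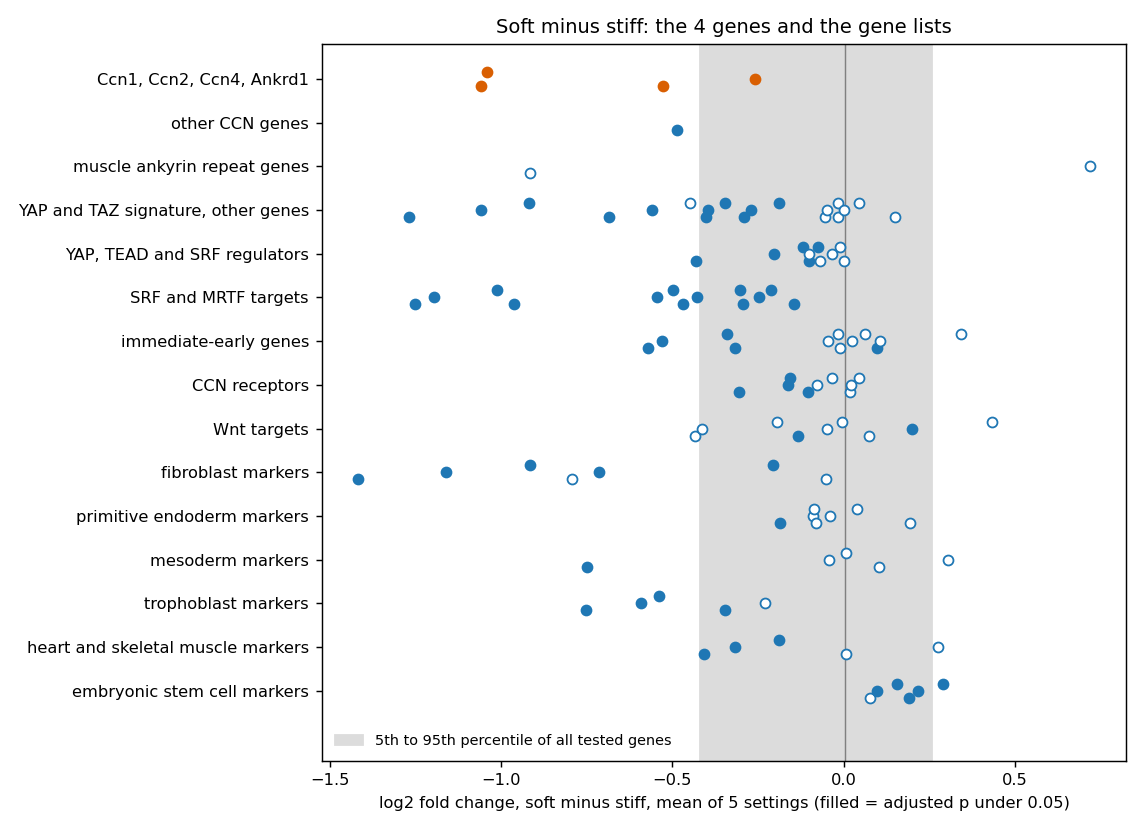
Log2 fold change, soft minus stiff, averaged over the 5 settings, of the 4 genes (orange) and of the genes in each list (blue), 1 point per tested gene; filled points passed edgeR adjusted p of 0.05 and the grey band spans the 5th to 95th percentile of all tested genes, from -0.42 to 0.26. Ccn4 and Ankrd1 lie near -1.05, Ccn2 lies inside the band, and the SRF and MRTF targets are all filled and below 0.

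Across the 11 group means of log2 CPM the 4 genes resembled each other to different degrees. Pearson's r was 0.85 between Ccn1 and Ccn2, 0.87 between Ccn1 and Ccn4, 0.90 between Ccn1 and Ankrd1, 0.89 between Ccn2 and Ankrd1, 0.84 between Ccn4 and Ankrd1 and 0.60 between Ccn2 and Ccn4. The points share libraries, depth and scaling, so these are descriptions. The lowest value was that of Ccn2 with Ccn4.

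Among 10474 other genes with a mean of at least 5 CPM, the pattern most like Ccn1 over the 11 groups was that of the actin crosslinker Flna (r = 0.99), followed by Parva, Tubb6, Rbms1 and Rnf128. For Ccn2 it was Amotl2, which binds YAP (r = 0.99), followed by Lats2, Cald1, Col5a1 and Patj. For Ccn4 it was Csf1, a macrophage growth factor (r = 0.98), followed by Slc25a24, Bmp8b, Loxl2 and Axl. For Ankrd1 it was Sema3c, a secreted guidance factor (r = 0.98), followed by Actg1, Gng12, Pmp22 and Tagln, out of 10475 genes. Over the 36 single libraries Flna, Csf1 and Sema3c were again first (r = 0.96, 0.95 and 0.85) and Amotl2 was the fourth for Ccn2 (r = 0.98). Others held less well: Actg1 fell to rank 292 for Ankrd1 (r = 0.63), Gng12 to rank 32, and Loxl2 to rank 31 for Ccn4.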

How the data were processed

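RNA was sequenced from 36 libraries of mESCs in 11 groups. The authors deposited raw counts per Ensembl gene. Their processing notes name STAR 2.5.2a, HTSeq and DESeq with mm10 and GRCm38, and the strand setting is not given in the sources used here. Columns carry group names only, so groups come from the labels and library numbers from column order. The totals of 10405696 to 26635239 counts limit precision for Ankrd1 most.

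From the counts, edgeR 4.0.16 (R 4.3.3) was run with TMM scaling, filterByExpr, a mean for each group over all 36 libraries and the quasi-likelihood test, two-sided. The p-values were adjusted by Benjamini-Hochberg over 17702 genes at a threshold of 0.05. CPM and RPKM use TMM-scaled totals, log2 CPM a prior count of 2, and RPKM the exon lengths of GENCODE. The procedure was tested on simulated data. Pairs of libraries of a group differed beyond sampling noise (chi-square per gene from 2.22 to 13.4 over 45 pairs), and each was counted once. Such a spread does not show that they came from separate cultures.

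The members and gene lists were chosen with earlier results of these data known. Named are the 4 genes, the other CCN and muscle ankyrin repeat genes, the 3 genes of each pathway list with the largest absolute difference between soft and stiff, the 5 genes most like each member and the 2 most abundant markers of each list. Klf10, Axin2 and Notum are named in addition, for their calls. Alternatives were DESeq2 1.42.0, its size factors, no filter, the compared groups alone, a pool term and leaving out each library.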

Additional observations from a re-analysis of the deposited data

Results flagged for a closer look

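Ankrd1 in soft serum + PD03 had a lowest library of 0.345 CPM, a gap to the next library that was 0.645 of the range of the 6 libraries, against Dixon's critical value of 0.625. The gap was tested at both ends for each of the 4 genes, 8 tests in all, and chance gives such a gap in about 1 of 20 groups. That library had 6 counts of Ankrd1.

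The effect of LIF on Ccn2 differed between media with and without PD03, by 0.28 on the log2 scale (edgeR adjusted p = 0.000606, 95% confidence interval from 0.18 to 0.39). LIF gave negative values without PD03 on both substrates and positive values with it, and the test was chosen after these values were seen.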

How the results depend on the processing

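For the average of the 5 settings, each of the 4 genes was called lower on soft by DESeq2, with its size factors, without the filter and without any 1 library. With a pool term Ankrd1 was not called there (from -1.63 to -0.70, at the lowest and highest of the assignments). Over all comparisons 1474 recomputed log2 fold changes kept their direction and side of the threshold, 53 lost and 18 gained a call, and 35 changed sign, none of these past the threshold. The cause of these changes was not tested.

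At 48 h in serum + LIF the soft minus stiff value of Ccn1 lost its call with DESeq2 (-0.39), in the compared groups alone (-0.41) and with a pool term (from -0.61 to -0.23), so that 0 members were called there under each. With a pool term Ankrd1 in serum + LIF + PD03 also lost its call (from -2.19 to -1.06). Some assignments also lost calls in serum and in serum + LIF + PD03. The highest log2 fold changes over the assignments were -0.49 for Ccn1, -0.25 for Ccn2 and -0.48 for Ccn4 in serum. They were -0.22 for Ccn2 and -0.67 for Ccn4 in serum + LIF + PD03. The lowest number of members called with a pool term was 1 in serum, 2 in serum + LIF + PD03, 2 for each gel against TCP, 1 for time on soft and 0 for LIF on stiff. The number was 2 for LIF on stiff without the filter, 1 for LIF with PD03 on stiff in the compared groups alone, and 2 for LIF by PD03 without the filter, in the compared groups alone and at the highest with a pool term. It was 1 for stiffness by PD03 with LIF under DESeq2, without the filter and at the highest with a pool term.

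With a pool term signs changed, for soft minus stiff at 48 h in serum + LIF, in Ankrd1 (-0.72) and Ccn4 (0.38), for time on soft in Ankrd1 (0.21) and Ccn4 (0.36), and for LIF with PD03 on soft in Ankrd1 (0.024), Ccn1 (-0.02) and Ccn4 (0.23). They also changed in Ccn1 for stiffness by time (-0.057) and in Ccn4 for LIF by PD03 (-0.038), stiffness by LIF with PD03 (0.10) and stiffness by PD03 without LIF (0.13).

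Leaving out 1 library gave, for soft minus stiff, -0.60 to -0.22 in Ccn1 at 48 h in serum + LIF, and in Ankrd1 -2.95 to -0.91 at 24 h, -1.05 to 0.64 at 48 h in serum + LIF and -2.09 to -1.02 in serum + LIF + PD03. In Ankrd1 it gave -1.97 to 0.71 for time on soft, -1.11 to 0.64 for LIF on soft and -0.74 to 0.33 for LIF with PD03 on soft. In Ccn1 it gave -0.32 to 0.053 for LIF on soft, -0.007 to 0.085 for LIF with PD03 on soft and -0.055 to 0.32 for stiffness by time. In Ccn2 it gave -0.057 to 0.022 for stiffness by LIF with PD03 and -0.019 to 0.071 for stiffness by PD03 without LIF. In Ccn4 it gave -0.10 to 0.086 for LIF with PD03 on soft and -0.15 to 0.091 for stiffness by PD03 without LIF. The number of members called ran from 0 to 1 for LIF on stiff, soft minus stiff at 48 h in serum + LIF and stiffness by PD03 with LIF, and from 1 to 2 for LIF by PD03. No paired analysis was possible because the columns carry no replicate number. With 1 to 43 counts a library, depth limits Ankrd1.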
